A study of Rattus norvegicus with 7 samples.

Results

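TEAD1 is a TEA-domain transcription factor that binds DNA but activates genes mainly through partner proteins, the Hippo pathway effectors YAP and TAZ. In Schwann cells, the glia of peripheral nerve, TEAD1 with YAP and TAZ is known for its part in proliferation and in the activation of myelin genes, where it acts beside SOX10. The peaks described here are the TEAD1 peaks of S16, a rat Schwann cell line, that met none of the 5 other peak lists of the series. There were 3571 of them among 26404 TEAD1 peaks outside the mitochondrial genome, or 13.5% (95% exact binomial interval 13.1 to 13.9%). They are called TEAD1-only peaks below, where "only" refers to these lists and not to every factor a Schwann cell has.

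The TEAD1-only peaks were chosen by position: a peak was kept when it shared not even 1 bp with any peak of H3K27ac, NR2F2, YY1 or RXRG in S16, or of SREBP1 in nerve. The TEAD1, NR2F2, YY1 and RXRG lists came from untreated S16 cells by CUT&RUN, a method that directs a nuclease to an antibody-marked protein and recovers the DNA it cuts free. The H3K27ac list also came from untreated S16 cells, in a sample whose title, unlike theirs, does not carry the CUT&RUN mark, and is taken here to be ChIP-seq. The SREBP1 list came by ChIP-seq from sciatic nerve of wild type rats at postnatal day 15. Acetylation of histone H3 at lysine 27 (H3K27ac) marks active promoters and enhancers. NR2F2 is an orphan nuclear receptor, RXRG a retinoid X receptor, YY1 a zinc finger protein that often binds promoters, and SREBP1 an activator of lipid synthesis genes. S16 is 1 cell line, and the nerve holds other cells beside Schwann cells.

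Each target had 1 library, and the files give positions on build rn5 with neither peak heights nor read counts, so that depth is unknown. There is therefore no spread between cultures, and no difference below was tested. The intervals are exact binomial ones, or order-statistic ones for a median. They cover the counting of peaks alone and take peaks as independent. The samples analysed include no control for the CUT&RUN libraries, so that background calls and binding cannot be told apart. No rn5 sequence or gene annotation was used here, so that peaks are named by position and no sequence is shown. With no expression data among the files, the TEAD1 label could not be checked against levels of its targets.

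H3K27ac and YY1 were the lists that TEAD1 peaks met most often. Of all TEAD1 peaks, 76.4% lay in an H3K27ac peak and 72.3% met YY1, against 38.0% for NR2F2, 24.96% for SREBP1 and 21.8% for RXRG. H3K27ac was the sole list met by 1778 TEAD1 peaks, YY1 by 1290, NR2F2 by 339, SREBP1 by 281 and RXRG by 51. Leaving RXRG out of the rule would thus have added 51 peaks, and leaving H3K27ac out 1778. By the same rule, 27.7% of NR2F2 peaks, 48.0% of RXRG, 44.4% of SREBP1 and 7.25% of YY1 peaks stood apart from all other lists. TEAD1, at 13.5%, stood between YY1 and the nuclear receptors. List sizes and widths differ, from 26404 TEAD1 to 99514 H3K27ac peaks, and each share depends on them; every SREBP1 peak in the deposited list is 485 bp wide.

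The edge of the rule was well filled. With no base between them, 5 TEAD1-only peaks abutted another list, 4 of them at H3K27ac and 1 at YY1. The one at chromosome 2, 191709847 to 191710183 (337 bp), had H3K27ac at 0 bp, YY1 at 32 bp and NR2F2 at 84 bp. In all, 171 TEAD1-only peaks lay within 50 bp of another list, 115 of them nearest to H3K27ac, with a median width of 220 bp. On the other side of the threshold, 201 TEAD1 peaks shared at most 50 bp with every list they met, most of them (116) with H3K27ac, and had a median width of 210 bp. The peaks just inside and just outside the class were thus close in number and width, each lying within 50 bp of the boundary that the rule sets.

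TEAD1-only peaks were narrow. Their width ran from 158 bp, the narrowest in the TEAD1 list, to 1274 bp, with 5% under 161 bp and 5% over 416.5 bp. The median was 204 bp (201 to 207 bp), against 324 bp (322 to 327 bp) for the other 22833 TEAD1 peaks, so that the TEAD1-only median was lower by 120 bp. TEAD1 peaks with H3K27ac and no factor had a median of 235 bp (n = 1778), those outside H3K27ac with a factor 262 bp (n = 2651), and those with both 346 bp (n = 18404). The TEAD1-only class was the narrowest of the 4. A wide peak meets any list more readily, so the rule itself favours narrow peaks, and how much of the difference comes from that was not tested.

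**Figure D1:**
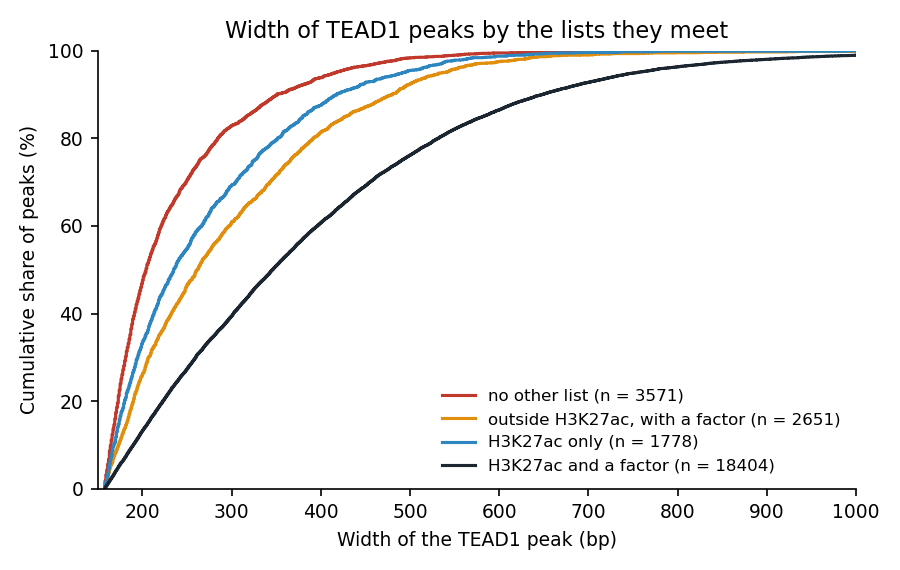
Cumulative share of TEAD1 peaks (%) against peak width (bp) for the 4 classes of TEAD1 peak, with n in the key; the axis ends at 1000 bp. The curve of TEAD1-only peaks (red) lies to the left of all others, with its median at 204 bp, and that of peaks with H3K27ac and a factor (black) to the right, with its median at 346 bp.

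With all TEAD1 peaks in 4 classes of equal share by width, most TEAD1-only peaks, 55.3% (1974), fell in the narrowest, 158 to 212 bp. In that class 29.7% of TEAD1 peaks were TEAD1-only (28.6 to 30.8%). The share fell with each class, to 15.2% at 213 to 302 bp, 7.10% at 303 to 440 bp and 2.02% (133 peaks) at 441 bp or more. Distance differed with width too: the median distance to H3K27ac was 3953.5 bp in the narrowest class and 1863 bp in the widest. The same order was present among TEAD1 peaks outside H3K27ac that met a factor, at 1904 and 684 bp. Within 500 bp of H3K27ac lay 17.5% of the narrowest and 33.1% of the widest TEAD1-only peaks.

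The 5 widest TEAD1-only peaks lay at very different distances from H3K27ac. The widest, 1274 bp at chromosome 4, 9540019 to 9541292, lay 326 bp from an H3K27ac peak and 16.3 kb from the next TEAD1 peak, one with H3K27ac and a factor. That on chromosome X, 138875221 to 138875943 (723 bp), was 107 bp from H3K27ac, and that on chromosome 17, 5912179 to 5912892 (714 bp), was 320 bp from it. These 3 were all within 500 bp of an acetylated region. The remaining 2 were not: chromosome 9, 51492681 to 51493386 (706 bp), lay 10.03 kb from H3K27ac, and chromosome 3, 140711360 to 140712116 (757 bp), lay 148.6 kb from H3K27ac and 181.8 kb from any other TEAD1 peak.

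TEAD1-only peaks lay at all distances from acetylated chromatin, from 0 bp to 470.1 kb. The median distance to the nearest H3K27ac peak, counted as the bases between the 2 peaks, was 3174 bp (2917 to 3452 bp), and the middle 50% lay between 666.5 and 13205.5 bp. H3K27ac was within 500 bp of 777 peaks (21.8%, 20.4 to 23.1%), within 5 kb of 2110 (59.1%) and within 10 kb of 2542 (71.2%, 69.7 to 72.7%). Of all TEAD1 peaks, 94.0% had H3K27ac at or within 10 kb, which includes those that lie in it. Over 100 kb away were 96 TEAD1-only peaks (2.69%). That none lay inside H3K27ac follows from the rule, and the median depends on it: with every other list extended by 500 bp on each side it was 5629 bp, and with the wider TEAD1 peaks alone (over 302 bp) 1962.5 bp.

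TEAD1 peaks outside H3K27ac that did meet a factor lay nearer to it. Their median distance was 1332 bp (1175 to 1546 bp), with 37.9% (36.0 to 39.7%) within 500 bp. Put the other way, of the 1781 TEAD1 peaks within 500 bp of H3K27ac but not in it, 43.6% (41.3 to 46.0%) met no factor. The share was 58.5% from 500 bp to 1 kb, then level at 62.1 to 63.1% out to 50 kb, and 70.1% (64.3 to 75.6%) from 50 to 100 kb. The lowest share was thus the one nearest to the acetylated peak, and its interval did not overlap that of any other distance.

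**Figure D2:**
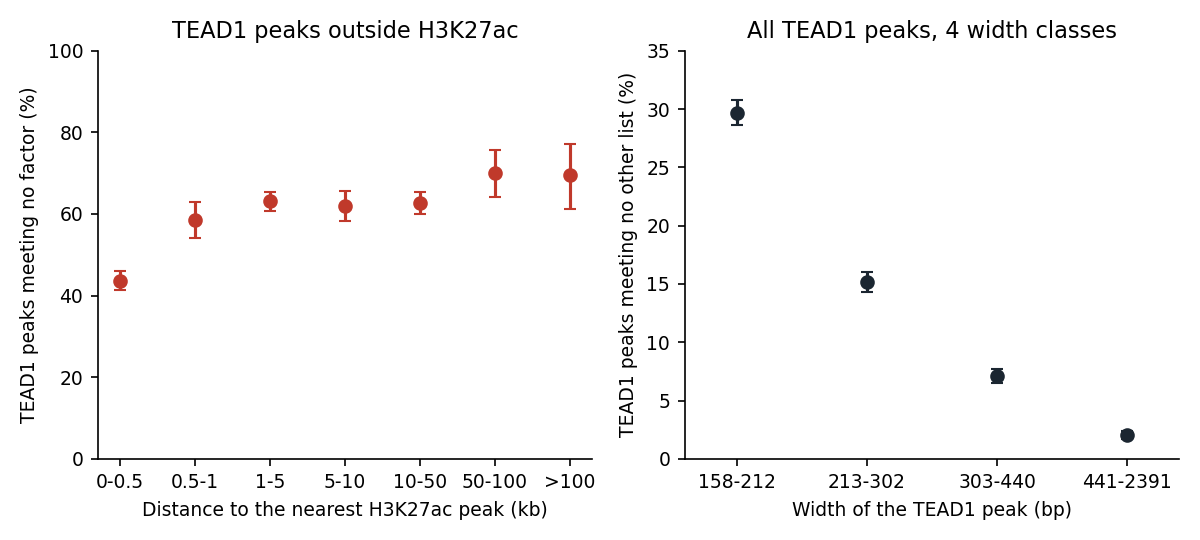
Left, share (%) of TEAD1 peaks outside H3K27ac that met no factor, by distance to the nearest H3K27ac peak (kb); right, share (%) of all TEAD1 peaks that met no other list, by width (bp). Points are shares and bars 95% exact binomial intervals. The left share goes from 43.6% nearest to H3K27ac to 69.6% beyond 100 kb, and the right share from 29.7% to 2.02%.

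TEAD1-only peaks lay nearer to acetylation than the nuclear receptor peaks chosen in the same way. NR2F2 peaks that met no other list had a median distance of 9513 bp (9145 to 9913 bp, n = 11536 with a distance), and RXRG ones 6944 bp (6715 to 7137 bp, n = 22992). Within 500 bp of H3K27ac lay 5.36% of those NR2F2 peaks and 5.89% of those RXRG peaks, against 21.8% of the TEAD1-only peaks. The 2807 YY1 peaks of this kind were more like TEAD1, with a median of 3824 bp (3554 to 4090 bp) and 16.3% within 500 bp. For the SREBP1 peaks of nerve the median was 5753 bp, with 16.6% within 500 bp. The intervals of the TEAD1 and YY1 medians do not overlap, although within 10 kb the shares, 71.2% for TEAD1 and 72.9% (71.2 to 74.6%) for YY1, did not differ beyond their intervals. The lists compared here differ in length and in peak width, which these intervals do not cover.

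**Figure D3:**
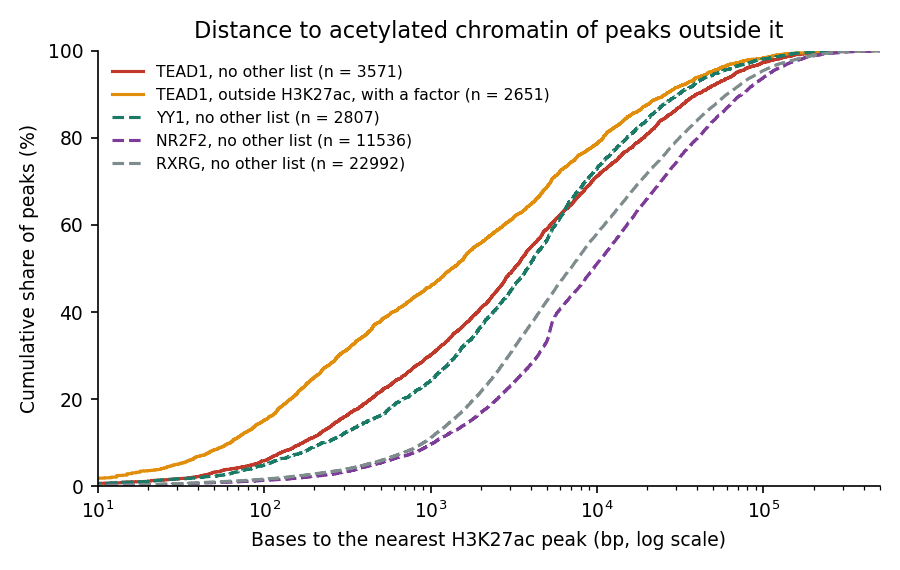
Cumulative share (%) of peaks outside H3K27ac against the bases to the nearest H3K27ac peak (bp, log scale, distances under 10 bp off the axis), for TEAD1-only peaks, TEAD1 peaks that met a factor, and YY1, NR2F2 and RXRG peaks that met no other list, with n in the key. The TEAD1-only and YY1 curves run close together, with medians of 3174 and 3824 bp, and cross above 5 kb; both lie to the left of RXRG (6944 bp) and NR2F2 (9513 bp).

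The H3K27ac peak nearest to a TEAD1-only peak was slightly narrower than its list and held NR2F2 and RXRG more often. Its median width was 682 bp (656 to 713 bp), against 737 bp (731 to 742 bp) for all H3K27ac peaks and 1345 bp for those that hold a TEAD1 peak. It held a TEAD1 peak of its own in 19.9% of cases (18.6 to 21.3%), where 19.0% of all H3K27ac peaks did. It held any factor, TEAD1 included, in 53.1% of cases, where 51.0% of all did. Shares of any factor in an H3K27ac peak include TEAD1 here and below. NR2F2 was in 30.9% (29.4 to 32.4%) against 25.5% of all, and RXRG in 22.8% (21.4 to 24.2%) against 20.5%. YY1 was in 31.0% against 30.9%, and SREBP1 in 13.8% (12.7 to 15.0%) against 15.0%. The shares for TEAD1 and YY1 are near their background, and for most TEAD1-only peaks the nearest acetylated region held no TEAD1 peak. For TEAD1 peaks outside H3K27ac that met a factor, the neighbour had a median width of 717 bp (685 to 755 bp), an overlapping interval. It held any factor in 61.9% of cases. That share was 58.0% for NR2F2 peaks that met no other list and 51.9% for RXRG ones. NR2F2 and RXRG were not counted one by one for these neighbours.

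The acetylated neighbour held a factor less often beside the TEAD1-only peaks within 500 bp of it than beside those farther off. Of the H3K27ac peaks within 500 bp of a TEAD1-only peak, 35.6% (277 of 777, 32.3 to 39.1%) held any factor, TEAD1 included, and 14.4% (12.0 to 17.1%) held TEAD1. From 500 bp to 10 kb the shares were 56.5% and 22.1%, and beyond 10 kb 60.3% and 20.4%. For TEAD1 peaks outside H3K27ac that met a factor, the neighbour within 500 bp held a factor in 62.6% of cases (59.5 to 65.6%) and TEAD1 in 13.8% (11.8 to 16.1%). Their neighbours held TEAD1 in 28.7% of cases from 500 bp to 10 kb and in 24.96% beyond, so that a lower share of TEAD1 nearest to H3K27ac was common to both classes. Among the peaks that met a factor, the neighbour held any factor in 59.4% of cases from 500 bp to 10 kb and in 65.3% beyond. The rule may bear on the difference between those classes in any factor, and on the lower share within 500 bp among TEAD1-only peaks. A factor peak other than TEAD1 that reaches over both regions removes a TEAD1 peak from the TEAD1-only class. This could happen more readily where the gap is short. Such factor peaks were not counted, and whether either difference comes from them was not tested. For TEAD1 itself the shares within 500 bp had overlapping intervals.

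Few TEAD1-only peaks had acetylation close on both sides. Of the 777 within 500 bp of H3K27ac, 753 had it on 1 side and 24 on both. This was common to TEAD1 peaks outside H3K27ac that met a factor: of 1004 within 500 bp, 958 had it on 1 side and 46 on both. Neighbouring H3K27ac peaks were never closer than 925 bp in the deposited list, which limits how often both sides can be this close. A gap of up to 10 kb between the flanking H3K27ac peaks held 1002 TEAD1-only peaks (28.1%, 26.6 to 29.6%), against 39.2% (37.4 to 41.1%) of the TEAD1 peaks outside H3K27ac that met a factor. The median gap around a TEAD1-only peak was 24409 bp, from 8930 to 81313 bp in the middle 50%.

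The peaks at the extremes of this distance were 158 to 306 bp wide. The smallest gaps above 0 were 1 bp at chromosome 17, 89578480 to 89578662 (183 bp wide), 2 bp at chromosome 1, 240773111 to 240773416 (306 bp), and 3 bp at chromosome 18, 32076323 to 32076496 (174 bp). The most remote peak, 172 bp at chromosome 12, 35597582 to 35597753, lay 470.1 kb from H3K27ac and 552.4 kb from another TEAD1 peak, but NR2F2 was 83254 bp and RXRG 96490 bp away. The peak of 158 bp at chromosome 8, 9574152 to 9574309, lay 314.7 kb from H3K27ac and 266113 bp from any other list. That of 193 bp at chromosome 5, 98354501 to 98354693, lay 244.2 kb from H3K27ac, with NR2F2 at 66588 bp.

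The factors were farther off than the acetylation. The median distance was 16375 bp to YY1, 18865 bp to RXRG, 18972 bp to NR2F2 and 26078 bp to nerve SREBP1. H3K27ac was the nearest of the 5 lists for 60.0% of TEAD1-only peaks, NR2F2 for 12.2%, RXRG for 10.9%, SREBP1 for 10.6% and YY1 for 6.30%. The H3K27ac list is the longest, and a longer list is nearer by its length alone. Any factor was within 1 kb of 639 TEAD1-only peaks (17.9%, 16.6 to 19.2%): YY1 of 274, NR2F2 of 254, SREBP1 of 231 and RXRG of 170, where some had more than 1.

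The factor peaks nearest to TEAD1-only peaks met no other list at shares that lay on either side of those of their whole lists. Of the 254 TEAD1-only peaks with NR2F2 within 1 kb, 67 had there an NR2F2 peak that itself met no other list, and the same held for 55 of 170 with RXRG, 38 of 274 with YY1 and 117 of 231 with SREBP1. The nearest NR2F2 peak at any distance met no other list in 24.95% of cases (23.5 to 26.4%), against 27.7% of the whole NR2F2 list. For RXRG the share was 41.9% against 48.0%, for SREBP1 46.8% against 44.4%, and for YY1 10.3% (9.33 to 11.4%) against 7.25%. Remote peaks were few: 83 TEAD1-only peaks (2.32%) lay over 50 kb from every peak of all 6 lists, and 14 lay over 100 kb.

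TEAD1-only peaks had fewer TEAD1 neighbours than other TEAD1 peaks. The median distance to the nearest TEAD1 peak of any class was 22727 bp (21286 to 24209 bp), against 15319 bp (14937 to 15677 bp) for the others. A TEAD1 peak was within 10 kb of 1131 TEAD1-only peaks (31.7%, 30.2 to 33.2%), while 39.1% of the other TEAD1 peaks had one (38.1% of all TEAD1 peaks). Within 1 kb the shares were 5.15% and, for the other TEAD1 peaks, 10.1%. TEAD1 peaks outside H3K27ac that met a factor had a median of 15041 bp (14025 to 16546 bp). Within 1 kb their share was 7.96% (6.96 to 9.06%), between those of the TEAD1-only and the other TEAD1 peaks.

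The nearest TEAD1 neighbour was usually a peak of the common kind. It had H3K27ac and a factor for 2244 TEAD1-only peaks (62.8%, 61.2 to 64.4%), a class that makes up 69.7% of all TEAD1 peaks. It was itself TEAD1-only for 645 (18.1%, 16.8 to 19.4%), where that class makes up 13.5%. For the other TEAD1 peaks the nearest neighbour was TEAD1-only in 12.4% of cases (12.0 to 12.8%). A peak outside H3K27ac with a factor was nearest for 432 TEAD1-only peaks (12.1%, 11.05 to 13.2%), where that class makes up 10.0%. Both classes outside H3K27ac, and not the TEAD1-only class alone, were thus somewhat more frequent as nearest neighbours than in the list.

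TEAD1-only peaks formed groups of at most 3 when joined across gaps of up to 10 kb. So joined, 3372 of the 3571 stood alone, 184 formed 92 pairs and 15 formed 5 groups of 3. The 199 in groups were 5.57% of the class (4.84 to 6.38%), while 38.1% of all TEAD1 peaks had another TEAD1 peak that close; that list is longer, which by itself brings its peaks closer. The share depends on the limit, with 2.86% at 5 kb, 22.8% at 50 kb and 36.1% at 100 kb. It was 9.31% with H3K27ac left out of the rule and 0.664% among TEAD1 peaks wider than the median. The median distance from a TEAD1-only peak to the next was 174956 bp. Those in groups had a median width of 212 bp (199 to 223 bp) and those alone 204 bp (201 to 206 bp), with overlapping intervals, and the medians to H3K27ac of 2434 bp (1781 to 3385 bp) and 3228.5 bp (2947 to 3509 bp) overlapped in their intervals too.

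The 5 groups of 3 differed in what lay between their members. The first, at chromosome 7, 2181135 to 2192841 (11.7 kb), held no other TEAD1 and no H3K27ac peak, but 1 YY1 and 1 SREBP1 peak. Its members were 167, 225 and 246 bp wide and 4604 to 7586 bp from H3K27ac. The group at chromosome 13, 109786306 to 109798824 (12.5 kb), held 1 H3K27ac peak and no other TEAD1 peak. That at chromosome 7, 99877322 to 99892815 (15.5 kb), held 1 H3K27ac peak and 2 other TEAD1 peaks, and its first member, 666 bp wide, was among the wider of the class. The rule for names took these 3 in order of position among 5 of equal size, and the last 2 were added after their values were seen. The group at chromosome 14, 46819622 to 46831419 (11.8 kb), was the densest in other lists, with 5 other TEAD1, 3 H3K27ac, 5 NR2F2, 5 YY1, 6 RXRG and 3 SREBP1 peaks among its 3 members of 518, 250 and 427 bp. The group at chromosome 15, 9131662 to 9142507 (10.8 kb), held 1 H3K27ac, 2 NR2F2 and 3 RXRG peaks and no other TEAD1 peak.

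The spacing of TEAD1 peaks changed near 5 kb. Among TEAD1-only peaks, 44 had their nearest TEAD1 peak at 4 to 4.5 kb, 57 at 4.5 to 5 kb and 78 at 5 to 5.5 kb, so that longer gaps were more frequent than shorter ones across that point. In the whole TEAD1 list, gaps between neighbouring peaks numbered 171 at 4 to 4.5 kb, 274 at 4.5 to 5 kb and 374 at 5 to 5.5 kb. The last was 2.19 times the first. A rise between the same outer steps was present within every list, at 1.53 times for H3K27ac, 1.57 for YY1, 1.94 for RXRG, 2.81 for SREBP1 and 3.75 for NR2F2. Part of it lay below 5 kb in each list. The counts went 3024, 4165 and 4641 for H3K27ac, and 334, 603 and 1253 for NR2F2. Between lists the rise was weak or absent for TEAD1-only peaks: the ratio was 0.857 to H3K27ac, 0.877 to RXRG, 1.13 to NR2F2, 1.22 to YY1 and 1.31 to SREBP1, on 52 to 73 peaks a step. The cluster counts above include gaps on both sides of this rise, and the part of the peak calling in it was not tested. Neighbouring TEAD1 peaks were never closer than 159 bp, near the smallest width of 158 bp.

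**Figure D4:**
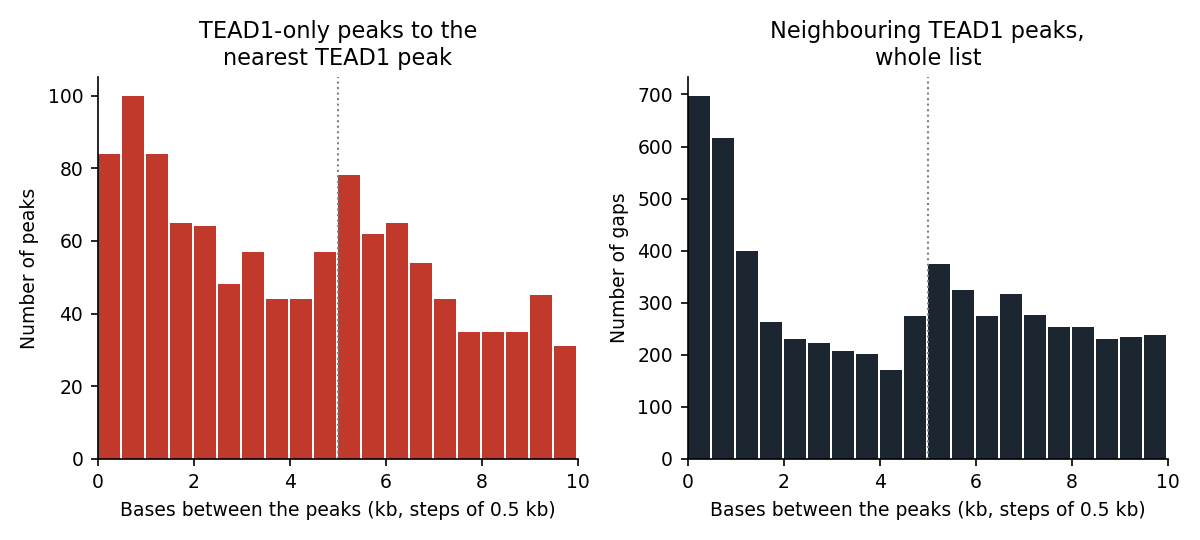
Number of TEAD1-only peaks by the bases to their nearest TEAD1 peak (left), and number of gaps between neighbouring peaks of the whole TEAD1 list (right), in steps of 0.5 kb up to 10 kb. The dotted line is at 5 kb; the count goes from 44 to 78 on the left and from 171 to 374 on the right between the steps that start at 4 and at 5 kb.

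TEAD1-only peaks were spread over all 21 chromosomes with TEAD1 peaks, at unequal shares. Chromosome X had the highest, 106 of 566 TEAD1 peaks or 18.7% (15.6 to 22.2%), against 13.4% (13.0 to 13.8%) on the autosomes. Chromosomes 2 (15.99%, 14.6 to 17.5%), 7 (15.8%) and 9 (15.1%) followed. The counting interval of X overlapped those of these chromosomes and of chromosomes 3, 4, 13, 14, 16 and 17. The lowest shares were on chromosomes 12 (9.03%, 6.82 to 11.7%), 20 (10.3%), 8 (10.4%) and 18 (10.8%). Chromosome 12 also had the largest share of TEAD1 peaks in H3K27ac, 84.9%, and X the smallest, 71.4%; the rule ties these shares to each other.

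**Figure D5:**
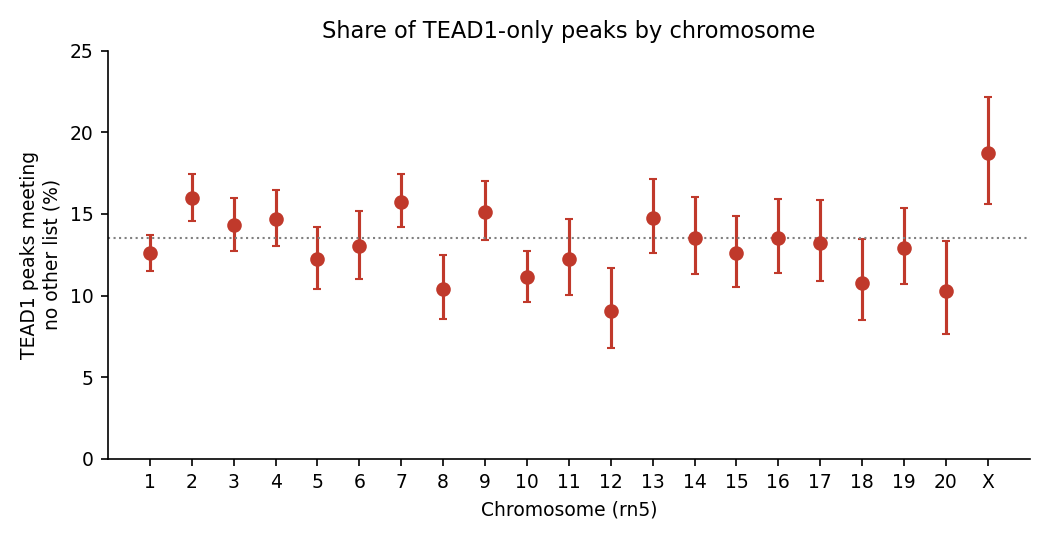
Share (%) of TEAD1 peaks that met no other list, by chromosome of build rn5; points are shares, bars 95% exact binomial intervals, and the dotted line is the share over all chromosomes, 13.5%. Chromosome X, at 18.7%, is the highest point and chromosome 12, at 9.03%, the lowest.

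The higher share on X, which was picked as the highest of the 21 chromosomes, was not common to the other factors. RXRG peaks met no other list less often on X than on autosomes (39.1%, 36.4 to 41.9%, against 48.2%), as did SREBP1 (38.9 against 44.5%) and YY1 (5.10%, 3.75 to 6.77%, against 7.30%). NR2F2 went the way of TEAD1, with 30.2% (27.9 to 32.5%) against 27.5% (27.1 to 28.0%), intervals that just overlap. These shares come from lists that define each other, and the number of copies of X in S16 was not measured here.

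In windows of 1 Mb, the most TEAD1-only peaks in a window was 11. Of the 2618 windows with a TEAD1 peak, 1748 (66.8%) held at least 1 TEAD1-only peak, and 454 held 3 or more. The window at 198 to 199 Mb of chromosome 2 had 11 among 30 TEAD1 and 82 H3K27ac peaks, a share of 36.7%. The first megabase of chromosome 19 also had 11, among 55 TEAD1 and 68 H3K27ac peaks (20.0%), and the window that starts at 116 Mb of chromosome 3 had 10 among 35 TEAD1 and 76 H3K27ac peaks (28.6%). A window on chromosome 9 starting at 87 Mb tied with the last, with 10 of 30. These windows were picked for their number of TEAD1-only peaks, which by itself favours shares above the 13.5% of all TEAD1 peaks.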

How the data were processed

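The authors deposited 1 peak list for each of 6 libraries, and the nerve input was not analysed here. The submitters' processing notes name build rn5 and the tools MACS2, Bowtie2, deepTools, bedtools and bcl2fastq 2.20.0.422. Not given in the sources used here: settings, peak thresholds and controls. The deposited score of the SREBP1 list is the same in every peak and was not used. Mitochondrial peaks were dropped. Peaks met when they shared at least 1 bp. Distances are the bases between peaks, positions count from 1, and peaks were joined across gaps of up to 10 kb. Python 3.11.15, NumPy 2.4.6, pandas 2.3.3, SciPy 1.17.1 and Matplotlib 3.10.9 were used, and the overlap, distance and joining steps were tested on simulated data, by brute force and bedtools 2.31.1. The members and measures were chosen with earlier results of these data known. Named peaks are the 5 widest, the 3 with the largest and 3 with the smallest gap above 0 to H3K27ac, and the 3 groups and 1 Mb windows with the most members; the abutting peak on chromosome 2, 2 more groups and a tied window were named after their values were seen. Motif shares and genes, planned if rn5 sequence or annotation was at hand, were not run. The spacing steps, the width and distance classes, the contents and flanks of H3K27ac peaks, the YY1 and SREBP1 comparisons, the peaks at the edge of the rule and the chromosome X contrast were added after seeing the data.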

Additional observations from a re-analysis of the deposited data

Results flagged for a closer look

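The TEAD1 list also held 9 peaks on the mitochondrial genome, which lie outside every comparison above and were singled out for that reason. The NR2F2 list held 13 such peaks, RXRG 16, YY1 9, H3K27ac 2 and SREBP1 0. Of the 9 TEAD1 peaks, 7 met an NR2F2 peak, 6 a YY1 peak, 6 an RXRG peak and 3 an H3K27ac peak, and 1 met no other list. No background was computed for these overlaps.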

How the results depend on the processing

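Of 83 recomputed values, 39 stayed within the original interval (within 1.5 times for the number) and 44 moved. Only the width difference could change direction, since numbers, shares and distances cannot be negative, and it did not. Placed chromosomes alone changed nothing, since every TEAD1 peak lies on one, and could not have: the values of that setting are counted among those that stayed. Results below are in this order: share of TEAD1 peaks, median distance to H3K27ac, share within 10 kb of H3K27ac, and share with another TEAD1-only peak within 10 kb. Sharing from 50% of the shorter peak gave 15.7%, 2452 bp, 74.0% and 6.38%. The midpoint rule gave 16.3%, 2342 bp, 74.5% and 6.72%, and a width difference of -115 bp. Extension by 500 bp gave 9.88%, 5629 bp, 62.6% and 3.87%, with TEAD1 at 26623 bp. Without H3K27ac the values were 20.3%, 669 bp, 80.8% and 9.31%, with TEAD1 at 19912 bp; without YY1 18.4%, 2471 bp, 73.8% and 8.29%, with a width difference of -109 bp and TEAD1 at 20501 bp. Without NR2F2 the first and last were 14.8% and 6.80%, and without SREBP1 the first was 14.6%. TEAD1 peaks wider than the median alone left 602 members, 4.56%, 1962.5 bp, 75.4% and 0.664%, with a width difference of -73.5 bp and TEAD1 at 39089.5 bp. That setting also thins the TEAD1 list itself. Joining TEAD1 peaks within 1 kb first gave a width difference of -138 bp, 3461 bp to H3K27ac, 25235 bp to TEAD1 and 4.08%. Between midpoints the distance to H3K27ac was 3810 bp. Limits of 5 and 50 kb gave 59.1 and 92.0% near H3K27ac, and 2.86 and 22.8% near another member. Causes other than the settings' own construction were not tested. The width difference was negative in each of its 11 alternatives, placed chromosomes alone among them. No paired analysis was possible because each target has 1 library. Read depth is unknown and its effect was not tested.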
